A study of Mus musculus with 8 samples.

Results

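The genes described here are 40 transcripts that mark B cells, plasma cells, antigen-presenting myeloid cells, neutrophils and mast cells, measured in leukocytes sorted from the mouse gut as intraepithelial lymphocytes (IELs). They were chosen by name as known markers of those cells, and all 40 of 40 were found among the 25230 gene symbols of the count table. By role they fall into 7 classes: 7 B cell genes, 3 plasma cell genes, 5 genes of MHC class II, 12 macrophage and dendritic cell genes, 4 genes of the IL-1 and IL-6 cytokines, 4 neutrophil genes and 5 mast cell genes. The exendin-4 group (Ex4) held 4 C57BL/6J mice injected intraperitoneally with 35 µg of anti-CD3 antibody and with exendin-4 at 10 nmol/kg. The PBS group held 4 C57BL/6J mice given the same 35 µg of anti-CD3 and PBS. Both groups therefore carried the T cell activation that anti-CD3 brings through the receptor complex, and a mouse without anti-CD3 was not analysed here. Exendin-4 is a peptide agonist of the GLP-1 receptor. The mice were killed 3 hours after injection, and gut cells were enriched on Percoll and sorted for CD45, the surface protein of leukocytes encoded by Ptprc.

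A gate on CD45 alone admits every leukocyte of the preparation, so B cells, macrophages, dendritic cells, neutrophils and mast cells can pass it together with T cells. B cells carry a receptor whose signal is passed on by the CD79 chains, and in the gut many mature into plasma cells that secrete IgA joined by the J chain. Macrophages, dendritic cells and B cells display peptides on MHC class II under the master regulator CIITA, and the enterocytes of the small intestine can also make MHC class II. Mucosal mast cells lie within the gut epithelium and store the proteases MCPT1 and MCPT2. In bulk RNA of this kind, fewer cells of a type and less RNA per cell cannot be told apart.

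Libraries held 13386889 to 31843413 gene counts. Values below are CPM, the counts of a gene as a share of its library after scaling of library sizes, and values after ± are SDs over 4 libraries. The sorted T cells were present as labelled: Cd3e, a chain of the T cell receptor complex, was at 807 ± 181 CPM in Ex4 and 717 ± 167 CPM in PBS, and Ptprc at 1262 ± 217 CPM in Ex4 and 1228 ± 94.8 CPM in PBS (n = 4 each). Epithelial RNA was present too. A list of 21 epithelial markers, all of them tested, summed to 559 to 1614 CPM in Ex4 and 850.3 to 1938 CPM in PBS. The library with the lowest epithelial sum was Ex4 1 and the one with the highest was PBS 3. Ex4 3 and PBS 2 had the fewest genes with any count, 17116 and 16639, although Ex4 3 was the deepest library.

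The promoters of a pair of MHC class II genes are shown here as background on the class. Their part in the levels measured in these libraries was not tested. Class II promoters carry an X box bound by RFX proteins and a Y box bound by NF-Y, and CIITA works through both. The windows run from 250 bases before to 50 bases after the start site and come from RefSeq (GRCm38.p6). H2-Aa, on the minus strand, is shown at chr17:34287774-34288073, and H2-Eb1, on the plus strand, at chr17:34305617-34305916. Each is written 5′ to 3′, and capitals mark matches to the Y box core CTGATTGG and to the X box core, both searched on both strands.
H2-Aa: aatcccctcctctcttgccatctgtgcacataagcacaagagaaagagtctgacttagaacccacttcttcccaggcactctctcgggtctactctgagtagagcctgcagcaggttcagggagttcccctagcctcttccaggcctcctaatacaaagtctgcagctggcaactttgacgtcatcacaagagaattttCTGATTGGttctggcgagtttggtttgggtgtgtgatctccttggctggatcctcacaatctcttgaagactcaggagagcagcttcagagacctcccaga
H2-Eb1: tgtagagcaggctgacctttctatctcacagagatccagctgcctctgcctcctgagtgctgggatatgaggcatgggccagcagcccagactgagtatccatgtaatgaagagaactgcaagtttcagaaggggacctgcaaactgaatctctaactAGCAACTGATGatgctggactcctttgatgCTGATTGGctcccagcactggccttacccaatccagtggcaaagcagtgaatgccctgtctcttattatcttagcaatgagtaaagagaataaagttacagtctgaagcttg

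In H2-Eb1 the first match is to the X box core and the second to the Y box core, whose first base lies 62 bases before the start site. The match in H2-Aa is to the Y box core, 51 bases before the start site. Of 32851 promoter windows of this length, 3.09% held the X box core, 4.1% the Y box core and 0.113% both. Of 12 other genes of this pathway with a window, H2-Oa and H2-Eb2 held both cores, and H2-DMb1 and H2-Ob the X box core alone. The other 8 held neither: H2-DMa, H2-DMb2, Rfx5, Rfxank, Ctss, Ifi30, Marchf1 and Cd80. Windows for H2-Ab1, Ciita and Cd74 were not used here. A match describes these letters and does not show that a factor was bound. The search was for exact letters, so a window without a match, as H2-Aa for the X box core, can still hold a box that differs from them.

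The members differed widely in level. Together they took from 0.277% to 0.662% of all counts of a library, and 4 genes, Cd74, H2-Ab1, Jchain and H2-Aa, made up 82.7% of the 864486 counts of members over the 8 libraries. Per kilobase of exon, Cd74 averaged 1075 ± 366 CPM in Ex4 and 1178 ± 268 CPM in PBS. Cd74 encodes the invariant chain, which chaperones class II molecules. On the same per-kilobase scale H2-Ab1, the class II beta chain of I-A, was at 387 ± 118 CPM in Ex4 and 420.2 ± 122 CPM in PBS. Cd3e was below it, at 198 ± 44.3 CPM in Ex4 and 176 ± 40.8 CPM in PBS. Cd3g, another chain of the T cell receptor complex, was above it, at 660 ± 73.9 CPM in Ex4 and 597 ± 77.9 CPM in PBS. The B cell receptor chain Cd79a was at 51.8 ± 30.7 CPM per kilobase in Ex4 and 55.8 ± 26.97 CPM per kilobase in PBS. The lowest member by this measure was Flt3, a growth factor receptor of dendritic cell precursors, at 0.465 ± 0.19 CPM per kilobase in Ex4 and 0.394 ± 0.147 CPM per kilobase in PBS.

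**Figure D1:**
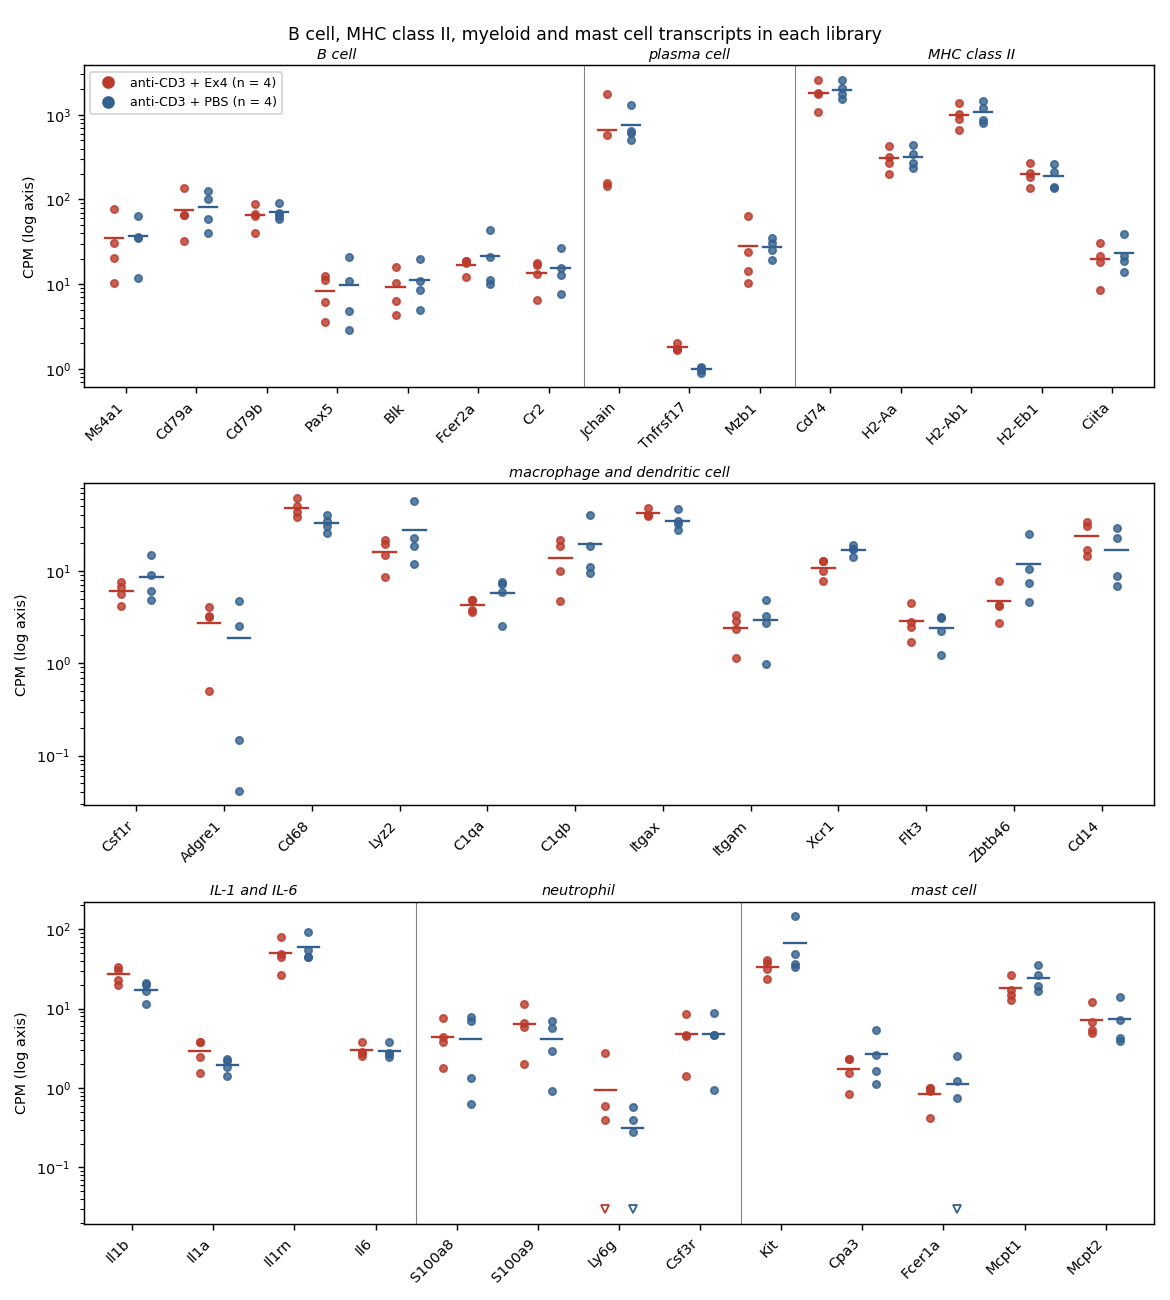
Level of each of the 40 genes in CPM on a log axis, by class, with anti-CD3 + Ex4 left of anti-CD3 + PBS; points are libraries, horizontal lines are group means, and open triangles mark a count of 0. Cd74, H2-Ab1, Jchain, H2-Aa and H2-Eb1 have the highest means, and Ly6g and Fcer1a include libraries with a count of 0.

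The comparison asked whether exendin-4 altered these transcripts in mice given anti-CD3. None of the members passed. At a threshold of 0.05 on the edgeR quasi-likelihood p, adjusted by Benjamini-Hochberg over all 14691 genes tested, 0 of the 39 members tested were higher and 0 lower with Ex4, where 0.0136% of all genes tested were called. DESeq2, which called 0.895% of the genes it gave an adjusted p, and limma-voom also called 0 members. At an unadjusted edgeR p under 0.05, 4 members passed, against 7.61% of all genes tested. Of these Cd68 and Il1b were higher in Ex4 and Xcr1 and Zbtb46 lower, against backgrounds of 3.71% and 3.9% in those directions. The groups did not overlap for 2 of the 39, against 4.95% of all genes tested. The median log2 fold change of Ex4 over PBS was -0.12 over the members tested and 0.02 over all genes tested. Ly6g was the member left out by the filter on low counts.

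**Figure D2:**
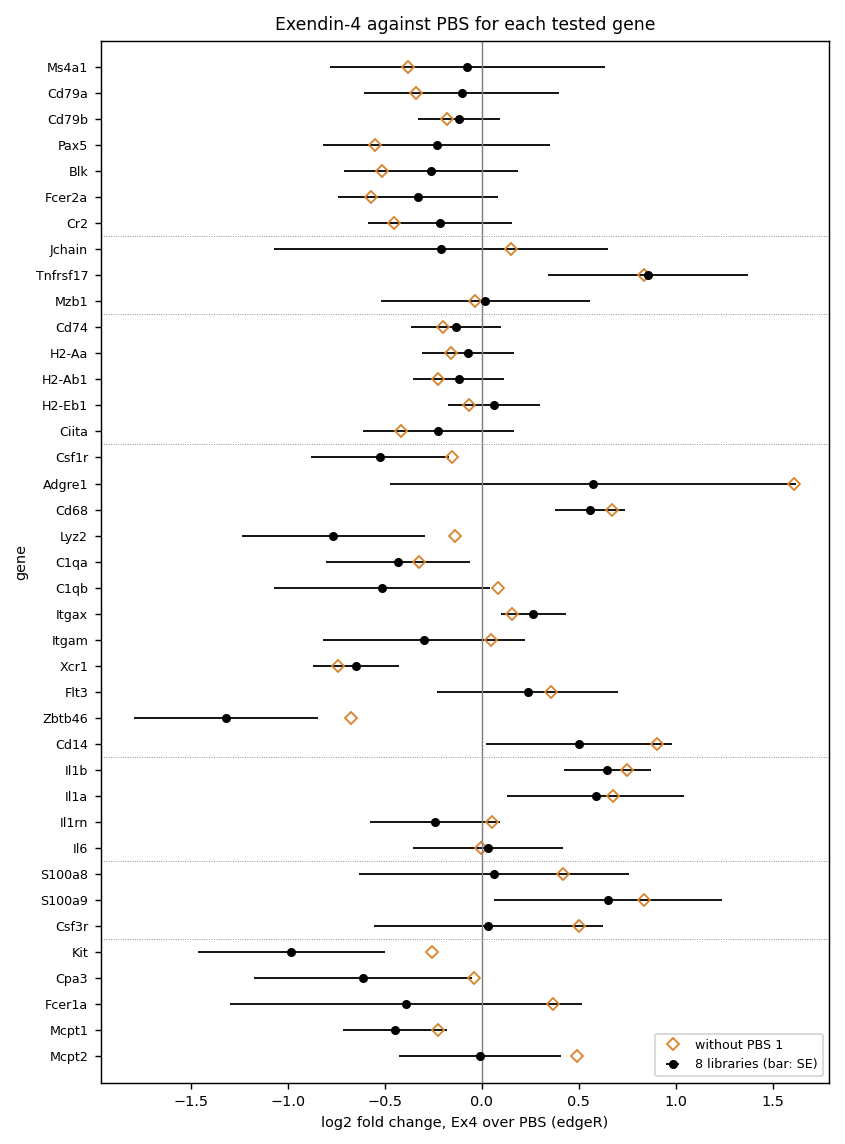
Log2 fold change of Ex4 over PBS (edgeR) for the 39 genes tested, in class order from B cell at the top to mast cell at the bottom; black points are all 8 libraries with the SE as a bar, and orange diamonds are the values without PBS 1. Without PBS 1, Kit moves to -0.26 and Zbtb46 to -0.67, while the B cell genes lie further below 0.

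B cell genes were present in every library and varied more between mice than between groups. Cd79a, a signalling chain of the B cell receptor, was at 32.1, 66.0, 138 and 65.8 CPM in Ex4 replicates 1 to 4 and at 40.2, 100.1, 127 and 58.1 CPM in PBS replicates 1 to 4. Ex4 3 and PBS 3 were the high libraries, Ex4 1 and PBS 1 the low ones, and the groups overlapped across their whole range. The log2 fold change of Cd79a was -0.10 (SE 0.50, edgeR adjusted p = 0.98). Ms4a1, which encodes the B cell surface protein CD20, had 10.4, 20.4, 78.2 and 30.5 CPM in Ex4 replicates 1 to 4 and 11.8, 36.1, 64.1 and 35.3 CPM in PBS replicates 1 to 4, the same high and low libraries. Its log2 fold change of -0.07 was -0.87 without Ex4 3 and 0.33 without PBS 3.

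The other 5 B cell members were all highest in PBS 3. Pax5, the transcription factor that fixes B cell identity, was at 3.59, 6.13, 11.3 and 12.6 CPM in Ex4 replicates 1 to 4 and at 2.84, 4.77, 20.9 and 11.0 CPM in PBS replicates 1 to 4. Its lowest library was PBS 1. Fcer2a and Cr2, surface receptors of mature B cells for IgE and for complement, were at no more than 18.9 and 17.6 CPM in Ex4 libraries and at 43.2 and 26.9 CPM in PBS 3. Blk, a tyrosine kinase of B cells that some gamma delta T cells also make, ran from 4.29 to 16.0 CPM in Ex4 and from 4.95 to 19.98 CPM in PBS. Cd79b, the partner chain of Cd79a, varied least of the class, 2.27-fold between its lowest and highest library, where Ms4a1 varied 7.52-fold.

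Over the class, PBS 3 was the highest library for 5 of 7 members and Ex4 3 for the other 2, and Ex4 1 was the lowest for 5 and PBS 1 for 2. The summed level ran from 109 to 367 CPM in Ex4 and from 141 to 392 CPM in PBS. All 7 log2 fold changes were below 0, from -0.33 for Fcer2a to -0.07 for Ms4a1, and 0 of 7 passed the edgeR test (adjusted p from 0.909 to 0.99). Below 0 were 47.1% of all genes tested. The direction rested on single libraries: 2 of 7 were below 0 without Ex4 1 and 0 of 7 without PBS 3. The log2 ratio of the class sum, -0.14 over all libraries, was 0.07 without Ex4 1 and 0.17 without PBS 3. The B cell sum and the epithelial sum had the same lowest library, Ex4 1, and the same highest library, PBS 3, and the part of epithelial RNA in this order was not tested. Of 14 other B cell genes, listed with earlier results of these data known, 7 had a log2 fold change above 0 and 7 below, and 0 passed. Their most abundant members in CPM were Cd37, a tetraspanin that T cells also carry, at 170.1 ± 15.1 CPM in Ex4 and 158 ± 11.0 CPM in PBS, Cd72 at 64.7 ± 19.8 CPM in Ex4 and 63.0 ± 13.04 CPM in PBS, and the transcription factor gene Ebf1 at 47.9 ± 24.1 CPM in Ex4 and 49.4 ± 30.1 CPM in PBS.

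**Figure D3:**
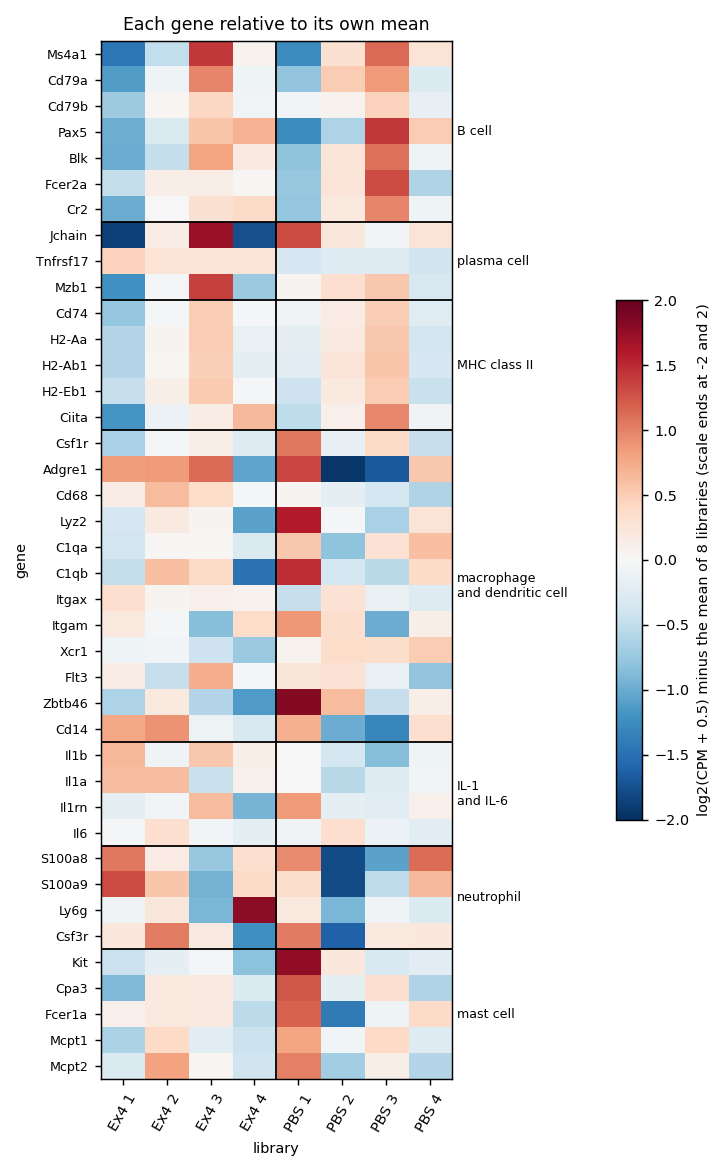
Each gene in each library as log2(CPM + 0.5) minus its mean over the 8 libraries, Ex4 1 to 4 left of PBS 1 to 4; red is above the gene's mean and blue below, and the colour scale ends at -2 and 2. B cell and MHC class II genes are high in Ex4 3 and PBS 3, and the mast cell genes are highest in PBS 1.

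Of the 7 class sums that of the plasma cell genes had the widest range between libraries, 11.6-fold. Jchain, which links IgA into dimers for transport across the epithelium, had 145, 584, 1760.1 and 157 CPM in Ex4 replicates 1 to 4 and 1303, 617, 511 and 637 CPM in PBS replicates 1 to 4. The Ex4 libraries thus held both the highest and the 2 lowest values, and the PBS libraries lay between them. The log2 fold change was -0.21 (SE 0.86, edgeR adjusted p = 0.977), and it ran from -1.39 without Ex4 3 to 0.15 without PBS 1. Jchain did not follow the B cell sum: Ex4 4 was low in Jchain with a B cell sum of 218 CPM, and PBS 1 was high in Jchain with a B cell sum of 141 CPM. Mzb1, an endoplasmic reticulum protein that helps antibody assembly, was at 10.2, 23.9, 63.3 and 14.2 CPM in Ex4 replicates 1 to 4 and at 25.3, 30.6, 35.3 and 19.4 CPM in PBS replicates 1 to 4. Like Jchain it was highest in Ex4 3 and lowest in Ex4 1. The ratio of Jchain to Mzb1 counts ran from 11.0 to 27.8 in Ex4 and from 14.5 to 51.5 in PBS, with the top value in PBS 1. Of the 100-base stretches of Mzb1 transcripts in GENCODE vM21, 49.4% are shared with an overlapping annotated gene on the same strand, so its count is uncertain.

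Tnfrsf17, which encodes BCMA, the survival receptor of plasma cells, was the one gene of these 3 whose groups did not overlap. It had 2.04, 1.73, 1.69 and 1.70 CPM in Ex4 replicates 1 to 4 and 0.961, 1.04, 1.04 and 0.899 CPM in PBS replicates 1 to 4. Every Ex4 library was above every PBS library, a pattern that 2.29% of all genes tested had. The counts behind it were low, from 24 to 49 in Ex4 and from 16 to 25 in PBS, and the difference of 0.86 on the log2 scale (SE 0.52) missed the threshold (edgeR adjusted p = 0.741). With each library left out in turn it stayed between 0.77 and 0.88. Of 8 other plasma cell genes 4 were above 0 and 4 below, and 0 passed. Xbp1, the transcription factor of secretory cells, was the most abundant of them in CPM, at 631 ± 146 CPM in Ex4 and 719.9 ± 88.7 CPM in PBS. Prdm1 and Irf4, which activated T cells also use, were at 225 ± 29.6 and 207 ± 49.4 CPM in Ex4 and at 176 ± 55.4 and 184 ± 77.9 CPM in PBS. Immunoglobulin constant genes were not analysed here.

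MHC class II genes moved as a block between mice. H2-Ab1 had 667, 1025, 1392 and 888 CPM in Ex4 replicates 1 to 4 and 862, 1193, 1469 and 793 CPM in PBS replicates 1 to 4. H2-Aa, which encodes the alpha chain that pairs with it, had 200.4, 315, 432 and 273 CPM in Ex4 replicates 1 to 4 and 267, 341, 441 and 233 CPM in PBS replicates 1 to 4. Both were highest in PBS 3 and lowest in Ex4 1, and both groups spanned nearly the same range. Within a library the ratio of H2-Aa to H2-Ab1 counts stayed between 0.286 and 0.31, a 1.09-fold range, while each gene alone varied 2.2-fold.

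Cd74 had 1075, 1791, 2579 and 1772 CPM in Ex4 replicates 1 to 4 and 1748, 2051, 2576 and 1539 CPM in PBS replicates 1 to 4. Its ratio to H2-Ab1 counts ran from 1.61 to 2.03 over the 8 libraries. H2-Eb1, the beta chain of I-E, had 136, 203, 269 and 182 CPM in Ex4 replicates 1 to 4 and 140.4, 214, 265 and 137 CPM in PBS replicates 1 to 4. C57BL/6 mice lack a working I-E alpha gene, so this chain has no partner at the cell surface. The ratio of H2-Eb1 to H2-Ab1 counts was 0.204, 0.198, 0.193 and 0.205 in Ex4 replicates 1 to 4 and 0.163, 0.179, 0.18 and 0.173 in PBS replicates 1 to 4. All 4 Ex4 libraries were above all 4 PBS libraries in this ratio, although the level of H2-Eb1 itself overlapped between the groups. It was 1 of 2 such ratios among 10 computed, all chosen with values of these data known, and it was given no test.

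Ciita, the regulator of the class, varied 4.59-fold, more than any of the other 4. It had 8.45, 18.2, 21.8 and 31.0 CPM in Ex4 replicates 1 to 4 and 13.7, 21.3, 38.8 and 18.8 CPM in PBS replicates 1 to 4. Ex4 1 was again the lowest and PBS 3 the highest library. None of the 5 class II members passed, with log2 fold changes from -0.23 (Ciita) to 0.06 (H2-Eb1) and edgeR adjusted p from 0.939 to 0.974. The class sum was 3319.8 ± 1071 CPM in Ex4 and 3590.1 ± 923 CPM in PBS. Of 14 further genes of class II presentation 0 passed. The most abundant of them in CPM were the protease gene Ctss, at 117 ± 23.4 CPM in Ex4 and 119 ± 24.2 CPM in PBS, H2-DMa, at 103 ± 25.8 CPM in Ex4 and 119.6 ± 29.1 CPM in PBS, and H2-DMb2, at 91.6 ± 31.5 CPM in Ex4 and 111 ± 57.4 CPM in PBS. H2-DM exchanges the peptides bound to class II.

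**Figure D4:**
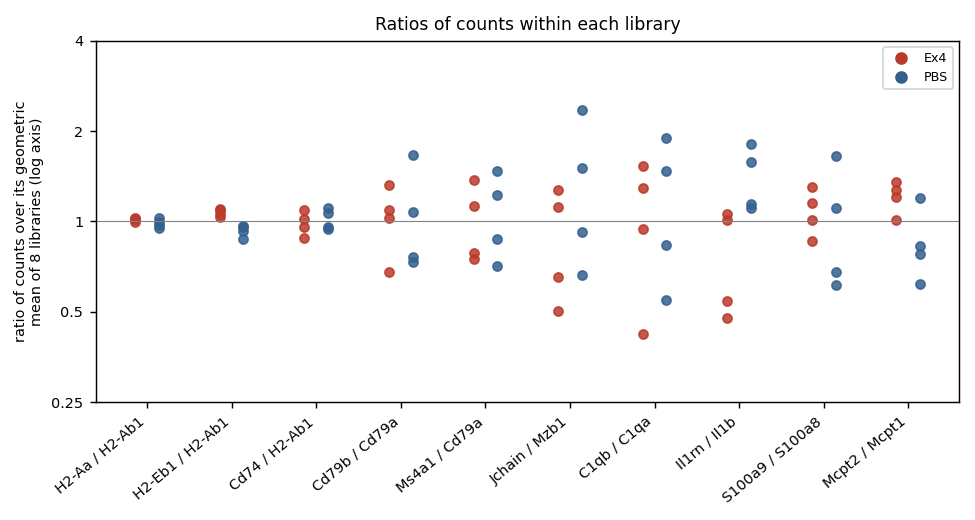
Ratio of the counts of 2 genes in each library, divided by the geometric mean of that ratio over the 8 libraries, on a log axis, with Ex4 left of PBS. The ratio of H2-Aa to H2-Ab1 spans 1.09-fold, while that of C1qb to C1qa spans 4.52-fold, and the groups separate for H2-Eb1 over H2-Ab1 and for Il1rn over Il1b.

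Macrophage and dendritic cell genes were lower in level and did not share one order of libraries. Cd68, a lysosomal protein of macrophages, had the smallest unadjusted p of the 40. It was at 43.4, 61.5, 50.6 and 38.1 CPM in Ex4 replicates 1 to 4 and at 40.7, 34.6, 30.5 and 25.6 CPM in PBS replicates 1 to 4. The groups overlapped through Ex4 4 and PBS 1. The difference of 0.56 on the log2 scale (SE 0.18) missed the threshold (edgeR adjusted p = 0.439), and it ran from 0.40 without Ex4 2 to 0.67 without PBS 1. Itgax, the integrin CD11c of dendritic cells that activated IELs can also carry, was at 42.3 ± 4.14 CPM in Ex4 and 35.1 ± 8.15 CPM in PBS, and varied 1.75-fold over the 8 libraries.

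Xcr1, the chemokine receptor of cross-presenting dendritic cells, was the member of this class whose groups did not overlap. It had 12.7, 12.9, 9.96 and 7.78 CPM in Ex4 replicates 1 to 4 and 14.04, 17.4, 17.3 and 19.3 CPM in PBS replicates 1 to 4. Every Ex4 library was below every PBS library, as for 2.66% of all genes tested. The log2 fold change was -0.65 (SE 0.22, edgeR adjusted p = 0.473), and it stayed between -0.76 and -0.53 with each library left out in turn. Clec9a, a receptor of the same dendritic cells chosen after values were seen, had a log2 fold change of -0.62 at 0.919 to 2.29 CPM in Ex4 and 1.49 to 2.88 CPM in PBS, and it did not pass either (edgeR adjusted p = 0.831). Wdfy4, which the same cells need for cross-presentation, was at 0.19 on that scale (edgeR adjusted p = 0.938). Within Ex4 it was lowest in Ex4 1 and within PBS in PBS 1, as Cd79a and Ms4a1 were. Batf3, also chosen after values were seen, was at -0.41 (edgeR adjusted p = 0.658). Flt3 was at 2.87 ± 1.17 CPM in Ex4 and 2.43 ± 0.906 CPM in PBS.

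Several macrophage and dendritic cell genes were highest in a single control mouse. Zbtb46, a transcription factor of classical dendritic cells that endothelium also makes, had 4.16, 7.71, 4.27 and 2.76 CPM in Ex4 replicates 1 to 4 and 24.9, 10.5, 4.66 and 7.36 CPM in PBS replicates 1 to 4. PBS 1 was the highest library, PBS 2 also lay above every Ex4 library, and PBS 3 and PBS 4 lay within the Ex4 range. The log2 fold change of -1.32 (SE 0.48, edgeR adjusted p = 0.525) was -0.67 without PBS 1. Lyz2, the lysozyme of macrophages and neutrophils, had 14.9, 21.5, 19.6 and 8.70 CPM in Ex4 replicates 1 to 4 and 57.4, 18.4, 11.8 and 23.0 CPM in PBS replicates 1 to 4, and its log2 fold change of -0.77 was -0.14 without PBS 1. C1qb, a chain of the complement component C1q that resident macrophages make, was at 4.74 to 21.8 CPM in Ex4, at 40.2 CPM in PBS 1 and at 9.57 to 18.5 CPM in the other PBS libraries. Csf1r, the receptor for macrophage growth factor, was at no more than 7.62 CPM in Ex4, at 14.8 CPM in PBS 1 and at no more than 9.12 CPM in the other PBS libraries. The sum of 13 T cell and IEL markers, all tested, was 68669 to 82155 CPM in Ex4, 50954 CPM in PBS 1 and 67211 to 77131 CPM in the other PBS libraries. Of that sum in PBS 1, 86.7% was the 2 granzyme genes Gzma and Gzmb, which encode cytotoxic granule proteases. Both granzyme genes were lowest in PBS 1. The other 11 markers summed to 6492 to 7347 CPM in Ex4 and 6182 to 7312 CPM in PBS, with 6782 CPM in PBS 1. Single markers in that sum differed. Cd3d, Cd3g, Cd247, Cd2, Cd5 and Cd8b1 were lowest in PBS 1, and Cd8a was highest there. Cd3e, Cd4, Ptprc and Itgae were neither lowest nor highest in PBS 1. Cd8a, a coreceptor chain of cytotoxic T cells and many IELs, was at 952 to 1218 CPM in Ex4, 2072 CPM in PBS 1 and 1362 to 1512 CPM in the other PBS libraries.

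The macrophage markers did not keep to one another as the class II chains did. The counts of C1qb over C1qa, chains of the same protein, ran from 1.24 in Ex4 4 to 5.61 in PBS 1. C1qa was at 4.28 ± 0.672 CPM in Ex4 and 5.79 ± 2.28 CPM in PBS. Adgre1, which encodes the macrophage antigen F4/80, had 72, 86, 117 and 7 counts in Ex4 replicates 1 to 4 and 98, 1, 3 and 45 counts in PBS replicates 1 to 4. PBS 2 and PBS 3 thus had almost none, while their Cd68 was at 34.6 and 30.5 CPM and their C1qb at 11.0 and 9.57 CPM. Its log2 fold change of 0.57 (SE 1.05, edgeR adjusted p = 0.941) was 1.61 without PBS 1 and 0.14 without PBS 2. Cd14, the lipopolysaccharide co-receptor, was at 14.4 to 33.9 CPM in Ex4 and lowest in the same PBS 2 and PBS 3, at 8.75 and 6.94 CPM, with 29.5 and 22.6 CPM in PBS 1 and PBS 4. Itgam, the integrin CD11b, was at 2.43 ± 0.944 CPM in Ex4 and 2.97 ± 1.61 CPM in PBS. Of its 100-base stretches 64.3% are shared with an overlapping gene model on the same strand, so its count is uncertain.

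Of the 12 macrophage and dendritic cell members 0 passed, 5 were above 0 and 7 below, and the median log2 fold change was -0.37. The class sum was 178 ± 35.1 CPM in Ex4 and 183 ± 59.1 CPM in PBS. Among 26 further genes of these cells 24 were tested, 11 were above 0 and 13 below with a median of -0.04, and 0 passed. The most abundant in CPM were Fcer1g, at 1565 ± 202 CPM in Ex4 and 1517 ± 132 CPM in PBS, Irf8, at 687 ± 66.0 CPM in Ex4 and 692 ± 147 CPM in PBS, and Tyrobp, at 233 ± 57.9 CPM in Ex4 and 284 ± 71.7 CPM in PBS. Fcer1g and Tyrobp encode signalling adaptors that natural killer cells and some IELs also use.

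**Figure D5:**
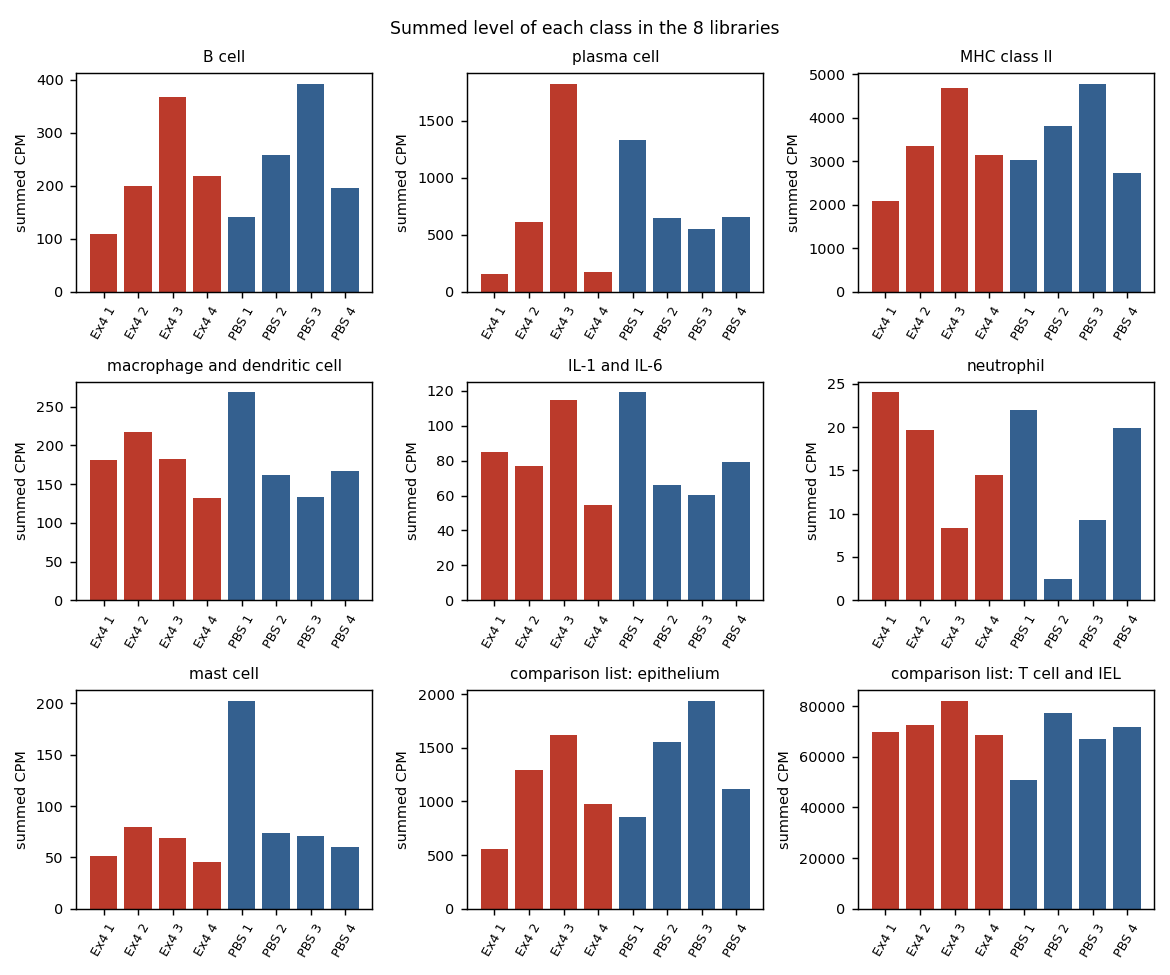
Summed CPM of each class in each library (bars from 0; red Ex4 1 to 4, blue PBS 1 to 4), with the lists of epithelial and of T cell and IEL markers in the last panels. Mast cell genes sum to at most 79.4 CPM in Ex4 and to 203 CPM in PBS 1, and the B cell, MHC class II and epithelial panels share Ex4 1 as lowest and PBS 3 as highest library.

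The cytokine members gave one gene with a higher mean and an unadjusted p under 0.05. Il1b, the secreted inflammatory cytokine IL-1 beta, had 33.9, 20.1, 31.0 and 23.0 CPM in Ex4 replicates 1 to 4 and 21.1, 16.5, 11.5 and 19.8 CPM in PBS replicates 1 to 4. Only PBS 1 reached into the Ex4 range, above Ex4 2. The log2 fold change was 0.65 (SE 0.22, edgeR adjusted p = 0.486), and it ran from 0.49 without PBS 3 to 0.75 without PBS 1. Il1rn, the antagonist that blocks the IL-1 receptor, had 44.5, 49.2, 79.6 and 26.7 CPM in Ex4 replicates 1 to 4 and 93.1, 44.6, 44.2 and 55.0 CPM in PBS replicates 1 to 4. These values overlapped, with the highest in PBS 1 and the lowest in Ex4 4.

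The ratio of Il1rn to Il1b counts was 1.31, 2.45, 2.57 and 1.16 in Ex4 replicates 1 to 4 and 4.41, 2.701, 3.84 and 2.77 in PBS replicates 1 to 4. Every Ex4 library was below every PBS library, though Ex4 3 at 2.57 and PBS 2 at 2.701 lay close together. This is the other of the 2 ratios among 10 whose groups did not overlap, and it too was chosen with values known and given no test. Il1a, the second IL-1 agonist, was at 2.91 ± 1.10 CPM in Ex4 and 1.94 ± 0.405 CPM in PBS, and Il6 at 3.00 ± 0.57 CPM in Ex4 and 2.94 ± 0.598 CPM in PBS. Neither passed (edgeR adjusted p = 0.824 and 0.992), and Il6 varied least of all members, 1.55-fold over the 8 libraries. Of 16 other genes of the IL-1 and IL-6 system 15 were tested, 10 were above 0 and 0 passed. Il6st, the shared signalling receptor gp130, was at 111 ± 15.7 CPM in Ex4 and 89.0 ± 27.3 CPM in PBS. Casp1, which cleaves IL-1 beta, was at 57.2 ± 7.32 CPM in Ex4 and 54.6 ± 8.60 CPM in PBS. The decoy receptor gene Il1r2 was at 51.1 ± 17.0 CPM in Ex4 and 30.3 ± 13.9 CPM in PBS (log2 fold change 0.75, edgeR adjusted p = 0.636).

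Neutrophil transcripts were scarce, with a class sum of 8.37 to 24.0 CPM in Ex4 and 2.49 to 21.9 CPM in PBS. S100a8, a subunit of the calcium-binding alarmin calprotectin, had 7.53, 3.83, 1.79 and 4.38 CPM in Ex4 replicates 1 to 4 and 6.97, 0.622, 1.34 and 7.87 CPM in PBS replicates 1 to 4. S100a9, the partner subunit, had 11.5, 6.62, 2.03 and 5.87 CPM in Ex4 replicates 1 to 4 and 5.67, 0.912, 2.92 and 7.08 CPM in PBS replicates 1 to 4. Both were lowest in PBS 2, and in Ex4 both were lowest in Ex4 3. Csf3r, the receptor for granulocyte colony-stimulating factor, was at 4.80 ± 2.95 CPM in Ex4 and 4.73 ± 3.16 CPM in PBS and was also lowest in PBS 2, at 0.953 CPM.

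Ly6g, the surface antigen that defines mouse neutrophils, had 9, 16, 0 and 39 counts in Ex4 replicates 1 to 4 and 12, 0, 8 and 5 counts in PBS replicates 1 to 4. The counts of 0 in Ex4 3 and PBS 2 allow a level of up to 0.103 and 0.124 CPM in those libraries, from 3 counts each and for counting error only. PBS 2 thus had the lowest value of all 4 neutrophil members, a 0 shared with Ex4 3 for Ly6g. These are the same 2 libraries that had the fewest genes with any count, and the part of that in the low values was not tested. None of the 3 neutrophil members tested passed, with log2 fold changes of 0.06 for S100a8, 0.65 for S100a9 and 0.03 for Csf3r (edgeR adjusted p from 0.858 to 0.994). Of 16 other neutrophil genes 14 were tested and 0 passed, and the most abundant in CPM was the chemokine gene Cxcl2, at 7.10 ± 1.60 CPM in Ex4 and 4.61 ± 1.90 CPM in PBS.

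All 5 mast cell members were highest in one control mouse, PBS 1. Kit, the receptor for stem cell factor that mast cells keep throughout life and innate lymphoid cells can also carry, had 31.4, 37.2, 41.3 and 23.8 CPM in Ex4 replicates 1 to 4 and 146, 48.9, 33.8 and 36.4 CPM in PBS replicates 1 to 4. PBS 1 was far the highest library, PBS 2 lay just above the Ex4 range, and PBS 3 and PBS 4 lay within it. The log2 fold change of -0.98 (SE 0.48, edgeR adjusted p = 0.686) was -0.26 without PBS 1.

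Mcpt1, the chymase of mucosal mast cells, had 12.8, 26.8, 17.2 and 14.8 CPM in Ex4 replicates 1 to 4 and 35.3, 19.4, 26.7 and 16.7 CPM in PBS replicates 1 to 4. The highest value was in PBS 1 and the lowest in Ex4 1, and the groups overlapped. Its log2 fold change was -0.45 (SE 0.27, edgeR adjusted p = 0.738), and -0.23 without PBS 1. Mcpt2, a related protease encoded next to it on chromosome 14, had 5.36, 12.0, 6.82 and 4.95 CPM in Ex4 replicates 1 to 4 and 13.8, 3.94, 7.29 and 4.27 CPM in PBS replicates 1 to 4. No 100-base stretch of either transcript was shared with another gene in GENCODE vM21, so long reads can tell the pair apart. The ratio of Mcpt2 to Mcpt1 counts was 0.333 to 0.445 in Ex4 and 0.203 to 0.392 in PBS.

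Cpa3, the carboxypeptidase of mast cell granules, was at 1.76 ± 0.71 CPM in Ex4 and 2.698 ± 1.90 CPM in PBS, with 5.38 CPM in PBS 1. Fcer1a, the alpha chain of the IgE receptor, had 21, 27, 29 and 6 counts in Ex4 replicates 1 to 4 and 52, 0, 15 and 22 counts in PBS replicates 1 to 4. The 0 in PBS 2 allows a level of up to 0.124 CPM. The class sum was 61.2 ± 15.5 CPM in Ex4 and 102 ± 67.5 CPM in PBS, and without PBS 1 the highest PBS library was at 73.9 CPM. All 5 log2 fold changes were below 0, from -0.98 for Kit to -0.0086 for Mcpt2, and 0 passed. Of all genes tested 47.1% were below 0. Without PBS 1, 3 of 5 were below 0, with Fcer1a at 0.37 and Mcpt2 at 0.49. Of 18 other mast cell and basophil genes 10 were tested, 6 were above 0 and 4 below with a median of 0.15, and 0 passed. Slc18a2, the vesicular transporter that loads amines into granules, was the most abundant in CPM, at 34.9 ± 5.42 CPM in Ex4 and 36.8 ± 10.3 CPM in PBS. Hpgds, a prostaglandin D2 synthase, was at 15.5 ± 2.13 CPM in Ex4 and 17.9 ± 3.70 CPM in PBS.

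Variation between mice of one group was wide for most members. The biological coefficient of variation that edgeR estimated for each gene had a median of 0.448 over the 39 members tested and 0.259 over all genes tested. By class the median was 0.241 for MHC class II, 0.359 for the cytokines, 0.445 for B cell genes, 0.46 for macrophage and dendritic cell genes, 0.461 for mast cell genes, 0.518 for plasma cell genes and 0.579 for neutrophil genes. Over the 8 libraries of both groups, the highest library held at least 4 times the level of the lowest in 22 of the 40 members. These include Ly6g and Fcer1a, with a lowest count of 0, and Adgre1, with a lowest count of 1. The share over all genes was not computed. PBS 1 was the highest library for 13 of the 40 members, and Ex4 1 was the lowest for 15. Exons of Pax5, Ciita, Csf1r, Il1b and Il1a overlap a gene on the other strand in GENCODE vM21, and whether the counting used strand is not given in the sources used here, so these counts are uncertain. The mice are labelled as separate samples, with no litter or batch stated. Each edgeR p sets the difference between groups against the spread between mice, which were taken as independent.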

How the data were processed

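The authors deposited whole-number gene counts, not normalised, with 1 column per mouse, and each column was matched to a mouse by its description. Per the submitters' processing notes, the tools were STAR 2.7.9a and DESeq2 and the build mm10; the read counter is not given in the sources used here. Replicates are described as separate mice, with no litter, cage or day stated. No replicates were one library deposited more than once (mean chi-square per gene from 20.6 to 77.1).

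The test was run with edgeR 4.0.16 under R 4.3.3 (filterByExpr, TMM, robust quasi-likelihood F test of Ex4 over PBS) and Benjamini-Hochberg adjustment over 14691 genes at 0.05. SEs were derived from the log2 fold change and its F statistic. DESeq2 1.42.0, limma-voom (limma 3.58.1), other scaling, filters, a replicate block and omission of libraries were alternatives. The edgeR test was also run on simulated counts, with 200 changed genes picked at random from all those kept by the filter. Among those tested it recovered 51 of 106 genes changed 2-fold and 67 of 83 genes changed 4-fold. Of its 121 calls there 3 were false. The members varied more than genes in general, with a median coefficient of variation of 0.448 against 0.259, so these shares need not hold for them. The number of true changes in the real data, which also affects such shares, is not known. A member that did not pass can still differ between the groups. Exon lengths, taken over all annotated exons of a gene, and shared 100-base stretches came from GENCODE vM21, and promoters from RefSeq. All 40 members are accounted for: those most abundant or with the smallest p in their class get values in every library, and each comparison list names at most 3 genes by mean CPM. Clec9a, Wdfy4, Batf3, Cd8a, the granzymes, the other single T cell markers set out for PBS 1 and the count ratios were chosen after values were seen. The members and lists were chosen with earlier results of these data known.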

Additional observations from a re-analysis of the deposited data

Results flagged for a closer look

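For each of the 40 genes and 7 class sums, the distance of an extreme library from the next library of its group was set against the group's range, on a log2(CPM + 0.5) scale. It passed Dixon's 95% limit in 5 of 94 groups, where chance passes about 1 in 20, or 4.7. In Ex4 1, Fcer2a was low at 12.2 CPM, with its neighbour at 17.6 CPM (ratio 0.837). In the same library Tnfrsf17 was high at 2.04 CPM, with its neighbour at 1.73 CPM (0.876), and Itgax was high at 48.4 CPM, with its neighbour at 40.8 CPM (0.862). In Ex4 4, the shallowest library, Adgre1 was low at 0.495 CPM, with its neighbour at 3.19 CPM (0.864), and Fcer1a was low at 0.424 CPM, with its neighbour at 0.93 CPM (0.883). No PBS library passed the limit, PBS 1 included, although PBS 1 held the highest value of 13 genes.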

How the results depend on the processing

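In each of 20 alternatives 0 members were called. Of these 19 recomputed the values (the other changed the threshold), and the 7 class sums moved by less than the spread between replicates in all 133 values, though each class sum other than that of the mast cell genes changed sign without at least 1 of the libraries. The smallest adjusted p of a member under any of them was 0.139 (Zbtb46, DESeq2), and DESeq2 gave no adjusted p to 12 of the 39 members. Over all genes the number called was 83 with DESeq2, 8 with no filter on low counts, 1 with limma-voom, 1 without robust estimation and 1 with the replicate block, against 2 in the edgeR test. With 1 library left out it was 1 to 14, the 14 without PBS 2. The sources used here do not say that replicate numbers pair mice. Deviations of same-numbered libraries correlated at 0.09, -0.03, -0.24 and 0.14, and the block called 0 members, as the edgeR test did. These values cannot decide whether mice were paired. Of the 39 members 15 kept their direction in every alternative, and 67 of 740 recomputed values changed sign.

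Outside the omission of libraries, 5 members changed sign. Mzb1 (0.02 in the edgeR test) was -0.0008 with DESeq2, -0.21 with limma-voom, -0.0079 with upper-quartile scaling, -0.052 with total counts only, -0.0012 with at least 1 CPM in 4 libraries and -0.31 with the replicate block. Csf3r was -0.027 with total counts only and -0.012 with the replicate block. Fcer1a was 1.06 with limma-voom and 0.14 with the replicate block, Mcpt2 was 0.16 and 0.080 in the same pair, and Pax5 was 0.017 with limma-voom.

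With 1 library left out, or with both Ex4 3 and PBS 2 left out (an alternative chosen after seeing the data), log2 fold changes ran from -0.87 to 0.33 for Ms4a1, -0.58 to 0.19 for Cd79a, -0.32 to 0.041 for Cd79b, -0.66 to 0.44 for Pax5, -0.69 to 0.19 for Blk, -0.57 to 0.27 for Fcer2a and -0.45 to 0.17 for Cr2. They ran from -1.48 to 0.15 for Jchain, -0.79 to 0.28 for Mzb1, -0.37 to 0.035 for Cd74, -0.30 to 0.12 for H2-Aa, -0.34 to 0.063 for H2-Ab1, -0.13 to 0.27 for H2-Eb1 and -0.53 to 0.14 for Ciita. They ran from -0.090 to 1.61 for Adgre1, -0.90 to 0.082 for C1qb, -0.59 to 0.046 for Itgam, -0.084 to 0.40 for Flt3, -0.69 to 0.054 for Il1rn, -0.13 to 0.21 for Il6, -0.35 to 0.53 for S100a8, -0.43 to 0.50 for Csf3r, -0.91 to 0.37 for Fcer1a and -0.38 to 0.49 for Mcpt2. The cause of these changes was not tested. Depth limits Tnfrsf17, Fcer1a and Ly6g, which had at most 49, 52 and 39 counts in any library.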
